A study of Homo sapiens with 9 samples.

Results

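The enzymes described here build and take apart sphingolipids, the membrane lipids made on a ceramide backbone. The set is 10 genes named by symbol, and all 10 were found by their Ensembl identifiers among the 63187 genes of the count table. All 10 also passed the filter of at least 10 counts in at least 3 libraries, which 16030 genes passed. They were chosen by their role in sphingolipid metabolism with the fold changes of these same libraries in the 3 comparisons of conditions already known, so their fold changes are given as descriptions of the fit across all genes, and nothing is read from how many of them passed the threshold.

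The cells are BEAS-2B, a virus-immortalized line of human bronchial epithelium. They were left untreated (control), or exposed for 24 h to aerosol condensate at a 2% (v/v) dilution, made either from the carrier liquid of propylene glycol and vegetable glycerine (PG/VG) or from a Virginia tobacco flavored e-liquid with nicotine at 18 mg/mL (EC). Each condition has 3 libraries, numbered 2, 3 and 4, and the labels give the same number as the batch. Since PG/VG holds neither nicotine nor flavor, EC vs. PG/VG compares the flavored nicotine liquid with a carrier liquid. The proportions of propylene glycol and glycerine in the flavored liquid are not given, so the liquids may also differ in these. Each treatment vs. control asks what the condensate as a whole did. All 9 libraries come from 1 cell line grown in medium with serum.

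Between 16168260 and 24917838 counts fell on genes in each library, with TMM scaling factors of 0.971 to 1.05 and a mitochondrial share of 1.32% to 1.92%. Libraries of batch 4 stood apart from those of batches 2 and 3, with a chi-square per gene of 35.0 to 52.8 between replicates when one was from batch 4 and of 3.66 to 12.2 when none was. Of the epithelial markers, KRT8 and KRT18 were abundant, at 1058 and 546 CPM in the control (TMM-scaled counts per 1000000), whereas EPCAM was at 1.20 CPM, CDH1 at 0.684 CPM and the basal markers KRT5, KRT14 and TP63 were at or near 0. The 8 epithelial markers summed to 1266 to 1807 CPM in the control, 1237 to 1749 CPM with PG/VG and 1072 to 1497 CPM with EC. The mesenchymal markers VIM, CDH2 and FN1 summed to 4974 to 6885, 4565 to 6564 and 3473 to 5303 CPM, and the leukocyte markers PTPRC and CD68 to at most 0.386 CPM in any library. The endothelial markers PECAM1 and CDH5, of which 1 passed the filter, summed to 4.57 to 7.49 CPM in the control. Their sums were 4.26 to 6.09 CPM with PG/VG and 3.89 to 5.26 CPM with EC. CD68 shares 81.6% of its exon length with genes on the same strand. Reads on more than 1 gene were discarded, so its low count does not show that the transcript was absent. The part of the shifts in these marker sums in the results was not tested. In bulk RNA a lower level per cell and fewer cells with the transcript cannot be told apart.

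Glycosphingolipids are made in steps. Ceramide is glucosylated in the Golgi, galactosylated to lactosylceramide, and then extended with sialic acid and further sugars into gangliosides, which sit mainly in the outer leaflet of the plasma membrane. Ceramide can instead receive phosphocholine to become sphingomyelin. Both kinds of lipid are returned to lysosomes, where acid hydrolases and their activator proteins break them down to ceramide and then to sphingosine. By role, UGCG and B4GALT5 start the glycosphingolipid pathway, ST3GAL5, B4GALNT1 and ST3GAL2 make gangliosides, SGMS2 makes sphingomyelin, and SMPD1, GM2A and ASAH1 serve in lysosomal breakdown. ST6GALNAC2 is also in the set, although it is best known for adding sialic acid to O-linked sugars of glycoproteins.

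The promoters of 3 genes that moved are shown with the 250 bases before their RefSeq start (GRCh38.p14, 5′ to 3′ in the direction of the gene, CpG dinucleotides in capitals), to place SMPD1 and GM2A, both higher in EC, beside UGCG, lower in both treatments. UGCG lies on the plus strand with its window at chr9:111896564-111896813, GM2A on the plus strand at chr5:151252935-151253184 and SMPD1 on the plus strand at chr11:6390224-6390473.
UGCG: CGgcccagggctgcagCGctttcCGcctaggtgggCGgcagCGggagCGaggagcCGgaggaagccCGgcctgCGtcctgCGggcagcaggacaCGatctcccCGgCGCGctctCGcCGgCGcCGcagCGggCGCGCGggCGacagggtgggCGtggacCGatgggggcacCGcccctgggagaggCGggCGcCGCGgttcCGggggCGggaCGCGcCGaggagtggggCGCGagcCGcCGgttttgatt
GM2A: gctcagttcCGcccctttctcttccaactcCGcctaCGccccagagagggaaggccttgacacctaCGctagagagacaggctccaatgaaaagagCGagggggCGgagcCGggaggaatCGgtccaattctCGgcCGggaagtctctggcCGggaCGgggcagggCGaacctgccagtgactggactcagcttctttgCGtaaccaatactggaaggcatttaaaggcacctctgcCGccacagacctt
SMPD1: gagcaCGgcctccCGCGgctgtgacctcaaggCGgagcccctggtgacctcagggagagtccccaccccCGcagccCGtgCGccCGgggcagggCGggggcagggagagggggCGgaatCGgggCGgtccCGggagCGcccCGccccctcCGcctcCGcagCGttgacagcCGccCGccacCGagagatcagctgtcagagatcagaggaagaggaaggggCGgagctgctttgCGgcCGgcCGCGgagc
The windows of UGCG, GM2A and SMPD1 hold 39, 15 and 26 CpG dinucleotides and are 78.4%, 60.0% and 75.2% G or C, against a median of 11 and 58.0% over the 35116 windows of the table. Windows were found for 6 of the 10 genes, the others being ST3GAL5, B4GALT5 and SGMS2. Then 5 short motifs were searched on both strands. CACGTG (the E-box) was in 0 of the 6 windows and in 6.34% of all windows, TCACGTGA (the core of the lysosomal CLEAR element, which contains the E-box) in 0 and 0.854%, TNGCGTG (bound by the aryl hydrocarbon receptor) in 0 and 4.52%, and TGATGNAA (a C/EBP and ATF composite element) in 0 and 3.14%. TGACNNNGC (an antioxidant response element core) was in 1 of the 6, that of SGMS2, and in 10.9% of all windows. A window without a match says only that these letters are not in these 250 bases. Only the first listed window of each gene was searched. That of GM2A lies inside the annotated gene, which runs from 151212150 to 151270440. The window of ST3GAL5, at chr2:85888991-85889240 on the minus strand, also lies inside its annotated gene, which runs from 85837120 to 85905199. The window of SMPD1 ends past the annotated gene start at 6390440. Other starts of a gene, where annotated, were not searched.

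In the control, UGCG was the most abundant of the 10 per length of the Ensembl canonical transcript, at 46.1 ± 1.81 RPKM (SD, n = 3, as for all levels per length here). B4GALT5 followed at 37.3 ± 3.47 RPKM, ASAH1 at 25.8 ± 8.23, GM2A at 15.8 ± 7.45, SMPD1 at 15.6 ± 3.97, ST3GAL2 at 7.71 ± 0.0781, SGMS2 at 7.57 ± 0.644 and B4GALNT1 at 6.38 ± 0.627 RPKM. ST3GAL5, the enzyme that commits lactosylceramide to the main ganglioside series, was low at 1.90 ± 0.624 RPKM, and ST6GALNAC2 lowest at 0.308 ± 0.0715 RPKM. Neighbours from B4GALT5 down to SMPD1 overlapped between their control libraries, as did those from ST3GAL2 down to B4GALNT1. UGCG lay above B4GALT5, SMPD1 above ST3GAL2, B4GALNT1 above ST3GAL5 and ST3GAL5 above ST6GALNAC2 in every control library. The order depends on the length used. Per total annotated exon length, which is 15378 bases for ASAH1 against 2779 for its canonical transcript, ASAH1 was at 4.66 ± 1.49 RPKM and UGCG, at 39.9 ± 1.57, overlapped B4GALT5, at 37.3 ± 3.47.

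**Figure D1:**
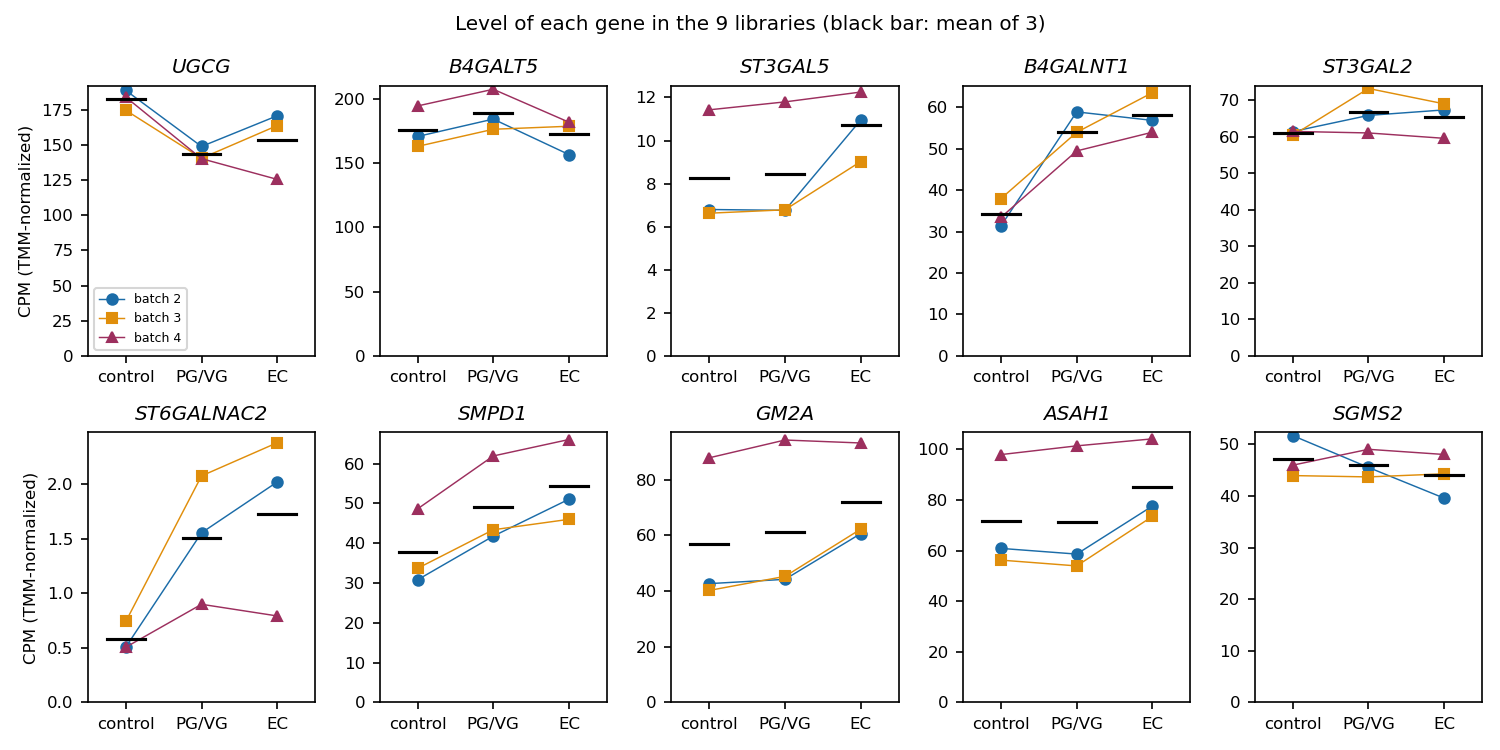
TMM-normalized CPM (linear axes from 0) of the 10 genes in the control, PG/VG and EC libraries, with 1 point per library, lines joining libraries of the same batch and a black bar at the mean of 3. B4GALNT1 is at 31.4 to 38.0 CPM in the control and 49.4 CPM or more in every treated library, while GM2A, ASAH1 and ST3GAL5 are split by batch, with batch 4 highest in each condition.

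A single edgeR quasi-likelihood model with a term for the condition and one for the batch was fitted to the 9 libraries. LFC is the log2 fold change of that fit, SE its standard error, and a gene with a Benjamini-Hochberg adjusted p under 0.05 over all 16030 genes is called a DEG. In EC vs. control 7 of the 10 genes were DEGs, 6 upregulated (B4GALNT1, ST6GALNAC2, SMPD1, GM2A, ASAH1 and ST3GAL5) and 1 downregulated (UGCG), where 13.5% of all genes were, 8.07% up and 5.38% down. In PG/VG vs. control 4 were DEGs, B4GALNT1, ST6GALNAC2 and SMPD1 up and UGCG down, where 4.54% of all genes were, 2.63% up and 1.9% down. Scaled by library size alone, 79.3% of the genes called in EC and 72.1% in PG/VG were up, against 60.0% and 58.0% here. With RLE normalization these shares were lower, at 54.9% and 50.9%. The 10 genes had a median LFC of 0.34 with EC and 0.11 with PG/VG, against 0.0078 and 0.013 over all genes tested. In EC vs. PG/VG 0 of the 10 were DEGs in edgeR, where 0.855% of all genes were, and 3 had an unadjusted p under 0.05. No gene of the set had its EC libraries all above or all below those of PG/VG, as 4.54% and 3.37% of all genes had. DESeq2 with the batch also called 0, while DESeq2 after ComBat-Seq called 2, GM2A and ASAH1. Both treatments are compared with the same 3 control libraries.

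**Figure D2:**
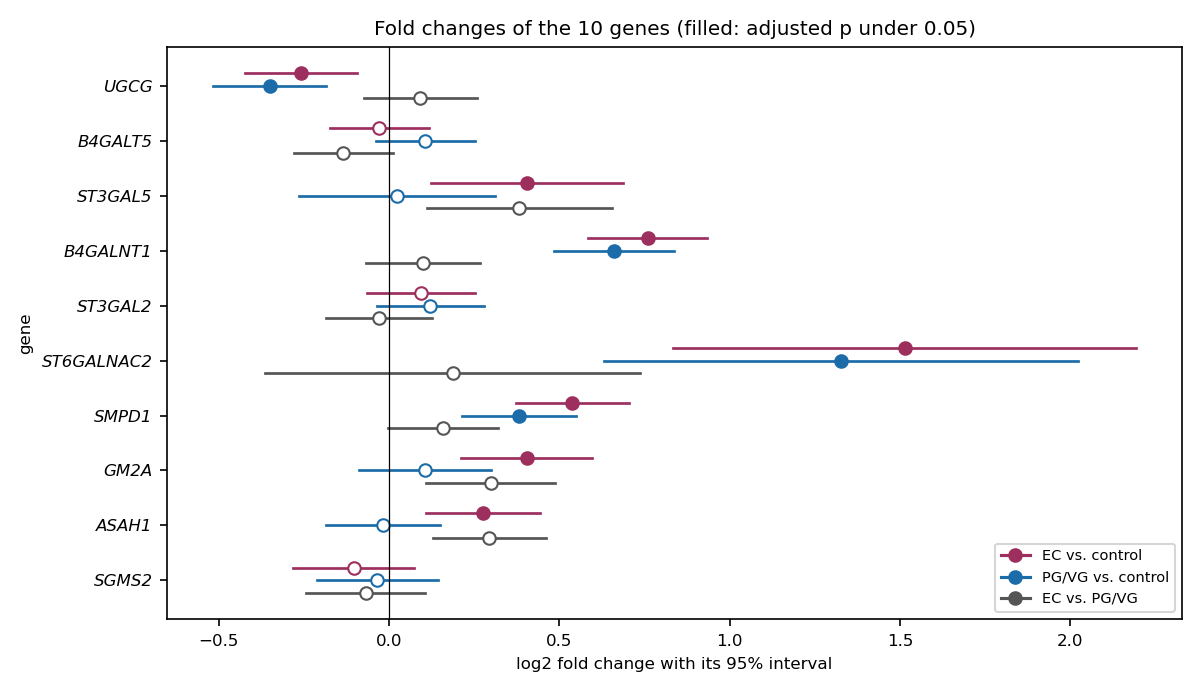
Log2 fold change of each of the 10 genes (horizontal axis, with its 95% interval as a line) in the 3 comparisons of conditions, filled where the adjusted p is under 0.05. B4GALNT1 sits at 0.76 and 0.66 against the control and at 0.10 between the treatments, while ST6GALNAC2 has the widest intervals.

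The first committed step, glucosylation of ceramide, is carried out by UGCG (ENSG00000148154, chromosome 9 from 111896814 to 111935369, GRCh38). Its level in batches 2, 3 and 4 was 189, 175 and 184 CPM in the control, 149, 140 and 140 CPM with PG/VG and 171, 164 and 125 CPM with EC. Every treated library was below every control library, as was so for 6.37% of all genes in PG/VG and 7.42% in EC. The LFC was −0.35 with PG/VG (SE 0.080, adjusted p = 0.0126, edgeR) and −0.26 with EC (SE 0.080, adjusted p = 0.0339, edgeR). Most of the fall in EC was in batch 4, at −0.55 against −0.14 and −0.093 in batches 2 and 3, whereas the PG/VG falls were −0.34, −0.31 and −0.39. The EC call was lost without control replicate 4 (LFC −0.18, adjusted p = 0.202, edgeR) and without EC replicate 4 (LFC −0.14, adjusted p = 0.26, edgeR), and the PG/VG call without control replicate 4 or PG/VG replicate 2 (adjusted p = 0.101 in each, edgeR). With library size as the only scaling the EC call was also lost (LFC −0.20, adjusted p = 0.0942, edgeR).

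B4GALT5, which adds galactose to make lactosylceramide, is on chromosome 20 from 49632945 to 49713878. It was at 171, 163 and 194 CPM in the control, 184, 176 and 207 CPM with PG/VG and 157, 179 and 182 CPM with EC. The 3 groups overlapped. It was not a DEG in either treatment, and the 95% interval of its LFC was −0.17 to 0.12 in EC and −0.040 to 0.25 in PG/VG.

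ST3GAL5 (ENSG00000115525, chromosome 2 from 85837120 to 85905199) makes GM3, from which most gangliosides are built. It was measured on 107 to 276 counts per library, at 6.80, 6.63 and 11.4 CPM in the control, 6.76, 6.78 and 11.8 CPM with PG/VG and 10.9, 9.02 and 12.2 CPM with EC. In PG/VG it differed from the control of the same batch by 0.045 at most on the log2 scale, while EC was above both in batches 2 and 3 and close to them in batch 4. The LFC was 0.40 with EC (SE 0.14, adjusted p = 0.0499, edgeR), while for PG/VG it was 0.022 (95% interval −0.27 to 0.31). The EC value lies at the threshold. It was a DEG in 2 of 9 fits with a library left out, those without PG/VG replicate 3 (adjusted p = 0.0485, edgeR) and without EC replicate 4 (LFC 0.56, adjusted p = 0.0205, edgeR). In the other 7, which left out control replicate 2, 3 or 4, PG/VG replicate 2 or 4, or EC replicate 2 or 3, the adjusted p was between 0.0553 and 0.321 (edgeR), the largest without EC replicate 2 (LFC 0.24). DESeq2 with the batch gave an adjusted p of 0.11, and RLE normalization 0.0558 in edgeR.

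B4GALNT1 (ENSG00000135454, chromosome 12 from 57623409 to 57633239) adds N-acetylgalactosamine to make GM2 and GD2, the entry to the complex gangliosides. In batches 2, 3 and 4 it was at 31.4, 38.0 and 33.4 CPM in the control, 58.9, 53.9 and 49.4 CPM with PG/VG and 56.8, 63.5 and 54.0 CPM with EC, on 494 to 1492 counts per library. Every treated library exceeded every control library, as was so for 9.83% of all genes with EC and 7.79% with PG/VG, and the treatments overlapped each other. The LFC was 0.76 with EC (SE 0.084, adjusted p = 4.89e-06, edgeR), or 1.69-fold, and 0.66 with PG/VG (SE 0.085, adjusted p = 0.000133, edgeR), or 1.58-fold. By p it ranked 20 of 16030 in EC and 9 in PG/VG. Leaving out any one of the 9 libraries kept it a DEG in both comparisons, with an LFC between 0.67 and 0.80 in EC and between 0.56 and 0.73 in PG/VG. About 27.1% of its exon length overlaps genes on the opposite strand, and the strand setting of the counting is not given in the sources used here.

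ST3GAL2 (chromosome 16 from 70375977 to 70439237) adds a terminal sialic acid to complex gangliosides such as GD1a. It was at 61.4, 60.3 and 61.4 CPM in the control, 65.8, 73.1 and 61.0 CPM with PG/VG and 67.3, 68.9 and 59.5 CPM with EC. Batch 4 showed no rise in either treatment and the groups overlapped. It was not a DEG, and the 95% interval of the LFC was −0.065 to 0.25 in EC and −0.037 to 0.28 in PG/VG.

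ST6GALNAC2 (ENSG00000070731, chromosome 17 from 76565377 to 76586956) had the largest LFC of the 10 genes and the fewest counts, 8 to 12 per control library, 21 to 38 in PG/VG and 16 to 56 in EC. It was at 0.508, 0.743 and 0.507 CPM in the control, 1.56, 2.08 and 0.901 CPM with PG/VG and 2.02, 2.38 and 0.794 CPM with EC. The treated libraries were all above the controls, as was so for 9.83% of all genes with EC and 7.79% with PG/VG. The difference was least in batch 4. The LFC was 1.51 with EC (SE 0.33, adjusted p = 0.00355, edgeR) and 1.33 with PG/VG (SE 0.34, adjusted p = 0.0238, edgeR). Of the control libraries only replicate 3 reached 10 counts, so ST6GALNAC2 passed the filter through the treated libraries, where it is high. Requiring 10 counts in every library left it out. Its separation from the controls, its calls and their stability are therefore given as descriptions only. With EC the gene stayed a DEG whichever of the 9 libraries was left out. The PG/VG call was lost without control replicate 2 or 3 or any one of the PG/VG libraries, with an adjusted p of 0.0684 to 0.141 (edgeR). Of its exon length 59.1% overlaps other annotated genes, 39.8% on the same strand, and reads on more than 1 gene were discarded, which leaves counts from only part of the gene.

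SGMS2, one of the sphingomyelin synthases, is on chromosome 4 from 107824563 to 107915047 and shares 15.7% of its exon length with an antisense gene. It was at 51.7, 44.0 and 46.0 CPM in the control, 45.5, 43.7 and 49.1 CPM with PG/VG and 39.6, 44.3 and 48.1 CPM with EC. The groups overlapped, and it was not a DEG in either treatment. The 95% interval of its LFC was −0.28 to 0.074 in EC and −0.21 to 0.14 in PG/VG.

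SMPD1 (ENSG00000166311, chromosome 11 from 6390440 to 6394998), the acid sphingomyelinase that releases ceramide from sphingomyelin, was higher in both treatments. Its level was 30.8, 33.7 and 48.6 CPM in the control, 41.8, 43.4 and 61.9 CPM with PG/VG and 51.1, 46.0 and 66.1 CPM with EC. Treated and control groups overlapped across batches, with batch 4 higher in every condition, yet within each batch both treated libraries exceeded the control. The LFC was 0.54 with EC (SE 0.080, adjusted p = 0.000113, edgeR) and 0.38 with PG/VG (SE 0.081, adjusted p = 0.00808, edgeR). With EC it stayed a DEG whichever of the 9 libraries was left out, with an LFC of 0.45 to 0.58. In PG/VG it was lost without control replicate 2 (adjusted p = 0.077, edgeR) and without PG/VG replicate 4 (adjusted p = 0.059, edgeR). The direct LFC of EC vs. PG/VG was 0.16, with a 95% interval of −0.0042 to 0.32.

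GM2A (ENSG00000196743, chromosome 5 from 151212150 to 151270440) encodes the GM2 activator, a lysosomal lipid-binding protein that presents ganglioside GM2 for breakdown. It was at 42.7, 40.3 and 87.9 CPM in the control, 44.2, 45.3 and 94.3 CPM with PG/VG and 60.7, 62.3 and 93.2 CPM with EC. The level in batch 4 was high in every condition, and the rise in EC was in batches 2 and 3. The LFC was 0.40 with EC (SE 0.092, adjusted p = 0.00574, edgeR). For PG/VG it was 0.11, which was not past the threshold (95% interval −0.088 to 0.30). The EC call was lost without control replicate 3 (adjusted p = 0.0625, edgeR) and without EC replicate 3 (adjusted p = 0.0589, edgeR).

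ASAH1 (ENSG00000104763, chromosome 8 from 18055992 to 18084998), the acid ceramidase that splits ceramide into sphingosine and a fatty acid, had the same shape. Its level was 60.9, 56.2 and 97.9 CPM in the control, 58.6, 53.9 and 101 CPM with PG/VG and 77.6, 73.5 and 104 CPM with EC. With PG/VG the LFC was −0.018 (95% interval −0.19 to 0.15), and EC was above both in batches 2 and 3. The LFC in EC was 0.28 (SE 0.081, adjusted p = 0.0257, edgeR). The EC call was lost without control replicate 2 or 3 and without EC replicate 2 or 3, with an adjusted p of 0.0954 to 0.153 (edgeR).

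Between EC and PG/VG the largest LFC values of the set were those of ST3GAL5 (0.38, SE 0.13), GM2A (0.30, SE 0.091) and ASAH1 (0.29, SE 0.080), with an adjusted p of 0.184, 0.141 and 0.0849 (edgeR). These are the same 3 genes that were DEGs in EC and not in PG/VG, and for none of them did the direct test pass the threshold. Their differences in batches 2, 3 and 4 were 0.69, 0.41 and 0.055 for ST3GAL5, 0.46, 0.46 and −0.016 for GM2A, and 0.40, 0.45 and 0.039 for ASAH1. Without EC replicate 4, GM2A (LFC 0.45, adjusted p = 0.0148, edgeR) and ASAH1 (LFC 0.40, adjusted p = 0.0288, edgeR) passed it. For B4GALNT1 the 95% interval of EC vs. PG/VG was −0.068 to 0.27 and for ST6GALNAC2 −0.36 to 0.74. UGCG, at 0.092, had an interval of −0.073 to 0.26.

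**Figure D3:**
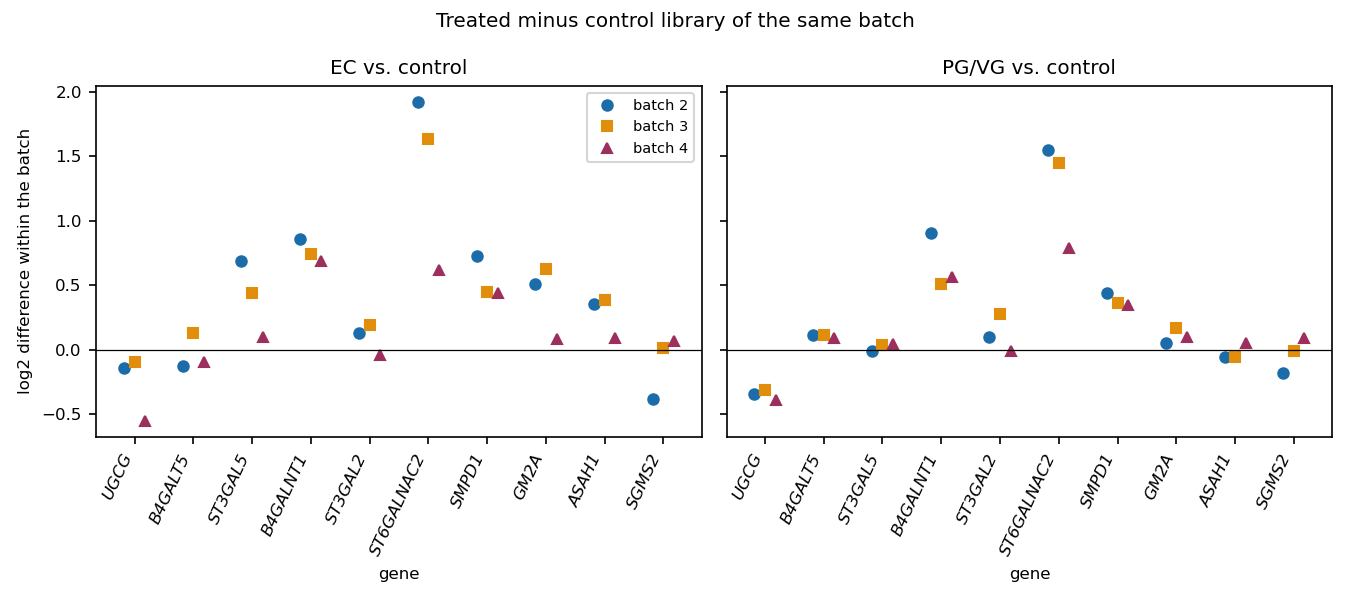
Log2 difference between the treated and the control library of the same batch for each of the 10 genes, EC in the left panel and PG/VG in the right panel, with 1 point per batch. In EC the batch 4 points of ST3GAL5, GM2A and ASAH1 lie at 0.10, 0.085 and 0.089, below those of batches 2 and 3, while B4GALNT1 and SMPD1 are above 0 in every batch of both panels.

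Levels also differed between batches. Over the 3 conditions, 6 of the 10 genes differed between batch 4 and the mean of batches 2 and 3, 5 higher and 1 lower, where 40.6% of all genes did, 20.1% higher and 20.5% lower. GM2A (LFC 0.92, SE 0.077, adjusted p = 2.93e-09, edgeR), ASAH1 (0.69, SE 0.068), ST3GAL5 (0.61, SE 0.11), SMPD1 (0.52, SE 0.067) and B4GALT5 (0.18, SE 0.060) were higher in batch 4, and ST6GALNAC2 was lower (−1.04, SE 0.28). For GM2A, ASAH1 and ST3GAL5, every batch 4 library exceeded the 6 others. The share of all genes split in this way was not counted, so nothing is read from this split. B4GALNT1, ST3GAL2, UGCG and SGMS2 were not past the threshold. The call of ST6GALNAC2 was lost without EC replicate 4 (LFC −0.77, adjusted p = 0.093, edgeR), that of B4GALT5 without control replicate 3 or 4 or PG/VG replicate 4 (adjusted p 0.0745 to 0.0871, edgeR), and UGCG gained one without control replicate 4 (LFC −0.22, adjusted p = 0.0288, edgeR). A batch holds 1 library of each condition, so these p-values measure the spread between libraries, and what sets batch 4 apart is not given in the labels.

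A term for the difference of the EC effect in batch 4 from that in batches 2 and 3 was added after the values were seen. The difference was −0.48 for GM2A (SE 0.14, unadjusted p = 0.00495, adjusted p = 0.445, edgeR), −0.43 for UGCG (SE 0.13, unadjusted p = 0.00473, adjusted p = 0.445, edgeR), −0.47 for ST3GAL5 (SE 0.24, adjusted p = 0.698, edgeR) and −0.28 for ASAH1 (SE 0.14, adjusted p = 0.686, edgeR). None of the 10 genes passed the threshold in this fit, in which 2 of 16030 genes did for EC (0.0125%) and 0 for PG/VG, and 1211 and 1042 genes had an unadjusted p under 0.05. Batch 4 has 1 library per condition here, assumed to vary like the others.

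The rest of the pathway was followed on 85 further sphingolipid and sialyltransferase genes, in 8 lists written from general knowledge of the pathway. Earlier results of these data were known when the lists were written, so their counts are descriptions too. Of the 85 genes, 66 were tested, and the other 19 had at most 10 counts in any library. In EC vs. control 11 of the 66 were DEGs (16.7%, where 13.5% of all genes were), 10 up and 1 down, with a median LFC of 0.11. In PG/VG vs. control 1 was (1.52%, where 4.54% of all genes were), and in EC vs. PG/VG 3 were, all higher in EC (4.55%, where 0.855% of all genes were). The median LFC was 0.044 in PG/VG and 0.061 between the treatments. Without the batch in the model none of these 66 genes was a DEG in any of the 3 comparisons.

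Of the 13 tested genes for lysosomal and neutral breakdown, 6 rose in EC (46.2%, where 8.07% of all genes did) and 13 had an LFC above 0, as 51.5% of all genes had, with a median of 0.17. In PG/VG 1 rose (7.69%, where 2.63% of all genes did), 10 were above 0, as 52.9% of all genes were, and the median was 0.065. Most of the list also differed between batch 4 and the mean of batches 2 and 3. That was so for 10 of the 13 genes (76.9%, where 40.6% of all genes did), 9 of them higher in batch 4. Among the genes that rose in EC were NEU1, the lysosomal sialidase (LFC 0.61, adjusted p = 4.98e-05), GALC, the galactosylceramidase (0.42), GLA, the alpha-galactosidase (0.33) and GLB1, the beta-galactosidase (0.26, with part of its exon length shared with other genes), all in the same edgeR test. NEU1 was at 99.7 ± 82.4 CPM in the control, 105 ± 85.9 in PG/VG and 142 ± 95.1 in EC (SD, n = 3 each), and its difference between batch 4 and the others (LFC 1.77) was larger than that between conditions. PSAP, the precursor of the saposins, was the most abundant gene of the list at 1234 CPM in the control and was not a DEG (LFC 0.12 in EC).

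The counts in the smaller lists can be set beside the 13.5% of all genes that were DEGs in EC and the 4.54% in PG/VG. Of the 15 tested genes for ceramide synthesis and transfer, 0 were DEGs in any comparison in edgeR, 1 had an unadjusted p under 0.05 in EC, 2 in PG/VG and 2 between the treatments, and the most abundant per exon length, DEGS1, had an LFC of 0.11 in EC. Among 7 tested ganglioside series genes 1 fell in EC, ST6GALNAC3 (LFC −0.48, adjusted p = 0.0378, edgeR). ST6GALNAC3 sialylates gangliosides and was lower in batch 4 than in the others (LFC −2.91). In batches 2, 3 and 4 it was at 12.45, 11.95 and 1.18 CPM in the control and 8.85, 7.45 and 1.39 CPM with EC. The fall was therefore in batches 2 and 3 only, and the batch 4 levels rest on 21 and 28 counts. The call was lost in DESeq2 with the batch (adjusted p = 0.109) and in DESeq2 after ComBat-Seq (adjusted p = 0.065). With library size as the only scaling it was also lost (adjusted p = 0.0647, edgeR). The most abundant of these 7 genes, ST6GALNAC4, had an LFC of 0.090. Of 4 globo and lacto series genes B3GALNT1, the globoside synthase, rose in EC (0.31, adjusted p = 0.037, edgeR). Of 3 genes for the glucosyl-, lactosyl- and galactosylceramide steps PLEKHA8, which carries glucosylceramide through the Golgi, rose in EC (0.30, adjusted p = 0.0403, edgeR), and GLTP, the most abundant, had an LFC of −0.093. Of the 4 other sialyltransferases 0 were DEGs in edgeR and 0 had an unadjusted p under 0.05 in EC, and ST3GAL4, the most abundant, had an LFC of 0.035.

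Among 7 tested genes of sphingomyelin turnover SMPDL3A, an acid sphingomyelinase-like phosphodiesterase, rose in EC vs. control (0.63, adjusted p = 0.0147, edgeR) and vs. PG/VG (0.67, adjusted p = 0.0498, edgeR), from 3.57 ± 1.40 CPM in the control and 3.44 ± 0.850 in PG/VG to 5.47 ± 1.44 in EC. SMPD4, the most abundant there, had an LFC of −0.025 in EC. Of 13 genes for ceramidases and sphingosine 1-phosphate ACER2, the Golgi alkaline ceramidase, rose in EC (0.59, adjusted p = 0.0225, edgeR). In batches 2, 3 and 4 ACER2 was at 2.86, 4.27 and 9.85 CPM in the control and 3.17, 5.92 and 18.3 CPM with EC. The rise was least in batch 2 and largest in batch 4. With PG/VG ACER2 was at 4.06, 3.94 and 14.3 CPM. SPHK1, a sphingosine kinase, was higher in EC than in PG/VG (0.35, adjusted p = 0.0313, edgeR). Its LFCs against the control were 0.11 (EC) and −0.24 (PG/VG), neither past the threshold. By its mean SPHK1 was the most abundant of those 13 genes per exon length. In the control it was at 81.6, 84.2 and 248 CPM in batches 2, 3 and 4, so this rank rests on batch 4. With one library left out in turn, the calls of NEU1 in EC vs. control and in EC vs. PG/VG held in each of the 9 fits. The other 8 EC vs. control calls named here held in 4 to 6 of the 9. They were lost without one of the control or EC libraries, and also without PG/VG replicate 2 for ST6GALNAC3 and PG/VG replicate 4 for PLEKHA8, with the largest adjusted p, 0.365, for PLEKHA8 without EC replicate 4 (LFC 0.16, edgeR). The EC vs. PG/VG call of SMPDL3A was lost without any one of the treated libraries (adjusted p up to 0.276, edgeR), and that of SPHK1 without PG/VG or EC replicate 2 or 4 (adjusted p up to 0.209, edgeR).

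**Figure D4:**
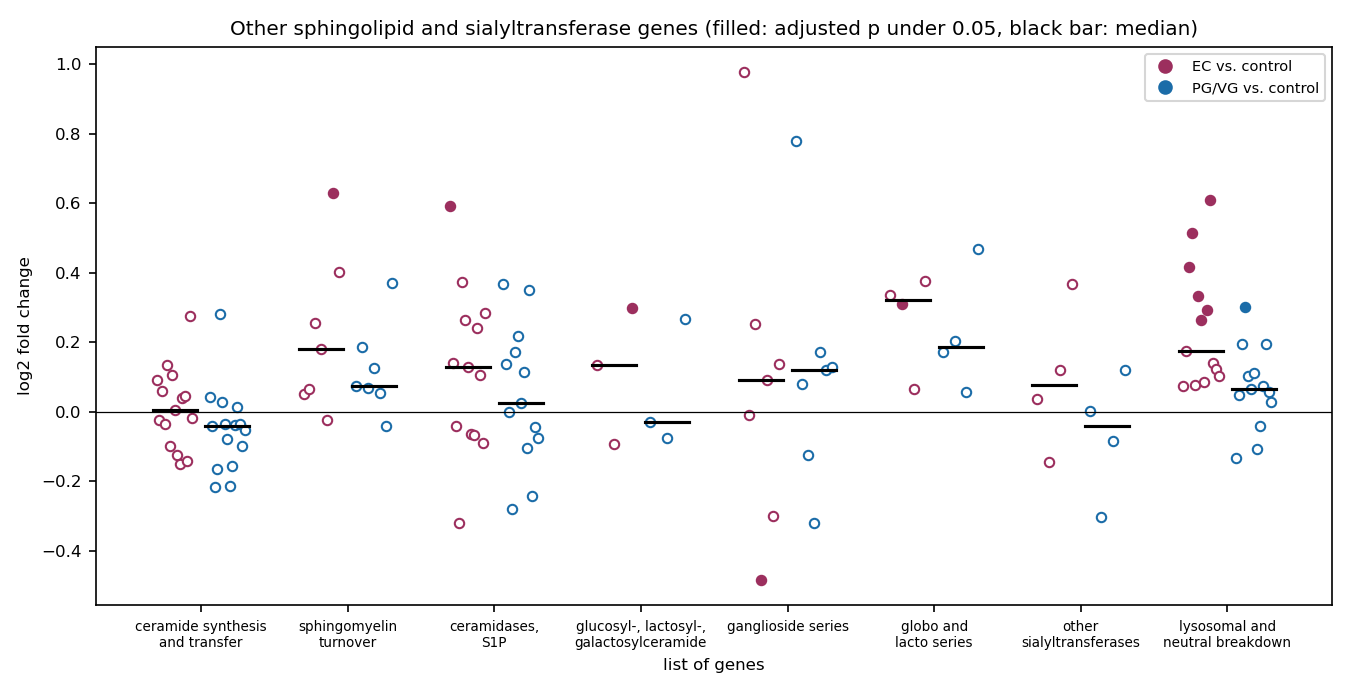
Log2 fold change of each tested gene of the 8 further lists for each treatment against the control, filled where the adjusted p is under 0.05, with a black bar at the median of each list. The 13 genes for lysosomal and neutral breakdown are all above 0 in EC, 6 of them filled, and the 15 genes for ceramide synthesis and transfer hold no filled point. S1P is sphingosine 1-phosphate.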

How the data were processed

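RNA of 9 BEAS-2B libraries was sequenced after poly-A selection. Per the labels and methods, the authors used fastp for trimming, STAR for alignment (GRCh38.p12), and counted reads on exons with featureCounts of Subread 2.0.4, ignoring multi-mapping and multi-overlapping reads. The deposited raw counts, whole numbers for 63187 genes, carry no batch adjustment, filter or normalization, and all columns were used. The genes and lists were chosen with earlier results of these data known.

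Counts were fitted in R 4.3.3 with edgeR 4.0.16 (TMM, robust dispersions, quasi-likelihood tests, Benjamini-Hochberg adjustment) with a condition and a batch term, on the 16030 genes that reached 10 counts in 3 or more libraries. SE is the absolute LFC over the root of the F statistic, and intervals are 95%. CPM uses TMM-scaled sizes of the tested genes. Within-batch differences use 0.5 added to each count. The labels give the same number for replicate and batch. Deviations from the condition mean correlated at 0.334 to 0.707 in the 9 same-numbered pairs and at −0.539 to 0.426 in the 18 others. Number 4 stood apart, at 0.648 to 0.707 within it and −0.539 to −0.419 with the other numbers. Pairs across numbers 2 and 3 correlated at 0.280 to 0.426, against 0.334 to 0.399 within each of them. These correlations therefore do not separate 2 from 3, and the batch term keeps them as separate blocks following the labels alone. Replicates differed by a chi-square per gene of at least 3.66, and none was a duplicate. Lengths and overlaps come from GENCODE release 44 on GRCh38, where 62666 genes matched by identifier, and promoters from RefSeq. Named genes were all 10, every further pathway gene called between conditions, and the most abundant of each list, apart from some pathway genes that are not reported here. Alternatives were no block, RLE, library size only, no filter, 10 counts in every library, DESeq2 1.42.0, ComBat-Seq of sva 3.50.0 with DESeq2, 2 groups alone, a threshold of 0.01 and leaving out each library. The batch 4 term and canonical lengths were added after seeing the data. On counts simulated for EC vs. control, 200 genes were changed by an LFC of 1. The edgeR fit with the batch recovered 162 of them and made 22 false calls, and DESeq2 with the batch recovered 149 and made 11. The share of false calls was above the nominal rate in both fits, more so in edgeR. The simulation held 200 changed genes, all by an LFC of 1, so it does not give the error rate among the real calls. The edgeR calls, those near the threshold among them, are still to be read as less certain than their adjusted p states. Smaller changes were not simulated.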

Additional observations from a re-analysis of the deposited data

How the results depend on the processing

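Without the replicate block, that is without the batch in the model, 1 of the 10 genes (B4GALNT1) was called in EC vs. control in place of 7, 0 in place of 4 in PG/VG vs. control and 0 between the treatments. The pathway genes then fell from 11, 1 and 3 calls to 0 in each comparison, and all genes from 2157, 727 and 137 to 16, 1 and 1. At an adjusted p under 0.01 the counts in the same order were 4, 2 and 0 for the 10 genes, 2, 0 and 1 for the pathway and 963, 226 and 45 for all genes. DESeq2 with the batch called 7 pathway genes in EC vs. control. Scaled by library size only, 2 pathway genes were called in PG/VG vs. control and 1 of the 10 in EC vs. PG/VG. With no filter beyond 1 count there were 2 pathway calls in PG/VG vs. control and, in EC vs. PG/VG, 2 of the 10 genes, 5 pathway genes and 309 genes in all. ComBat-Seq with DESeq2 gave 4 pathway calls and 1735 in all in PG/VG vs. control, and 2, 7 and 658 in EC vs. PG/VG. The 2 groups alone gave 3 and 1179, and 2, 5 and 318. The 2 of the 10 genes called in EC vs. PG/VG were GM2A and ASAH1 each time. The cause of these differences was not tested. Leaving out one library moved the calls in EC vs. control to between 4 and 7 of the 10 genes (4 without control replicate 3 or EC replicate 3), 3 and 11 pathway genes and 1162 and 2172 genes in all. In PG/VG vs. control they were 2 to 4, 0 to 3 and 192 to 1084, the lowest total without PG/VG replicate 2, and in EC vs. PG/VG 0 to 2, 1 to 4 and 32 to 208. Between batches they were 5 to 6.

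The sign changed in 13 fits, all of values not past the threshold. With library size only, the LFC of B4GALT5 in EC vs. control was 0.032, of ASAH1 in PG/VG vs. control 0.0087 and of ST3GAL2 in EC vs. PG/VG 0.0053. The other 10 each left out one library. Over those fits the LFC ran from −0.11 to 0.0093 for B4GALT5 in EC vs. control, above 0 without EC replicate 2. In PG/VG vs. control it ran from −0.11 to 0.11 for ST3GAL5, from −0.12 to 0.028 for ASAH1 and from −0.11 to 0.072 for SGMS2. Between EC and PG/VG it ran from −0.056 to 0.025 for ST3GAL2 and from −0.13 to 0.034 for SGMS2.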
